A study of Mus musculus with 8 samples.

Results

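The nuclear genes of the mitochondrial respiratory chain were examined in the mRNA bound to tagged ribosomes of mu-opioid receptor-expressing (MOR+) neurons of the paraventricular thalamus (PVT). They were taken by name from the table of read counts, as every gene whose symbol begins with Nduf and a letter, Uqcr, Cox4 to Cox8 or Atp5, or is Sdha, Sdhb, Sdhc or Sdhd. This rule, which uses no measured value, gave 89 of 18939 genes, and the transcript with the most reads over all libraries stood for its gene. By name, 42 genes belonged to complex I, 4 to complex II, 8 to complex III, 18 to complex IV and 17 to complex V. Not every name stands for a subunit. Of the genes named for complex I, 4 encode assembly factors (Ndufaf1, Ndufaf2, Ndufaf3 and Ndufaf4), Ndufa4 encodes a protein now counted as a subunit of complex IV, and Ndufa4l2 is its paralogue. Cox4nb is an older name of Emc8, a part of the endoplasmic reticulum membrane complex, and Atp5s and Atp5sl are older names of Dmac2l and Dmac2. Without the assembly factors, the supercomplex factor Cox7a2l, Cox4nb, Atp5s and Atp5sl, 81 genes encode a subunit or a subunit isoform, and all 89 are described here.

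All mice carried OPRM1cre X EGFP-L10a, in which Cre made with the mu-opioid receptor switches on a ribosomal protein fused to EGFP, so that translating ribosome affinity purification (TRAP) pulls down ribosomes of cells that express, or once expressed, Cre. The control group (4 libraries) drank 0.2% saccharin, labelled as control drinking water, and the morphine group (4 libraries) drank morphine in 0.2% saccharin, raised up to 0.5 mg/ml, for 11 days. Mice were 8 to 12 weeks old, and each library pooled gross PVT dissections of 2 mice of the same sex. Control replicates 1 and 2 and morphine replicates 3 and 4 were male, and control replicates 5 and 6 and morphine replicates 7 and 8 were labelled female. Numbers 1 to 4 and 5 to 8 therefore follow sex, and anything else that differed between these sets of libraries cannot be told apart from it.

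The respiratory chain moves electrons from NADH (complex I) and succinate (complex II) through ubiquinone, complex III and cytochrome c to oxygen (complex IV). The proton gradient built by complexes I, III and IV drives ATP synthase (complex V). Most subunits are encoded in the nucleus and imported, a small set is made inside the mitochondrion, and neurons draw on this system for most of the ATP spent on ion pumping and synaptic transmission.

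Over the 18939 transcripts that stood for their genes, control libraries held 37081346 to 43311792 counts and morphine libraries 31151106 to 47582947. Counts of the other transcripts are not in these sums. Control replicate 5, labelled female, held reads of 4 Y-linked genes at 28.7% to 35.8% of the mean of the male libraries, whereas no such gene exceeded 2 counts in another female library, so results are also given without it. Markers of some other cells differed between the groups. The 13 choroid plexus markers summed to 43.7 to 166 CPM (counts scaled to the size of the library) in controls and 219 to 683 in the morphine group, and the 12 measured telencephalic pyramidal neuron markers summed to 772 to 1447 and 1303 to 2816. The 8 thalamic markers, Oprm1 included, summed to 2518 to 3244 and 1955 to 3228, and all 8 had log2 fold changes below 0. The 7 oligodendrocyte markers, 119 to 1211 CPM in controls and 561 to 1510 in the morphine group, all had log2 fold changes above 0 (median 0.56). Their mean log2 deviation from the control mean was -2.08 in control replicate 1 and 0.06, 1.30 and 0.72 in replicates 2, 5 and 6. Of the 7 astrocyte markers 6 were above 0 (median 0.39). They summed to 248 to 440 CPM in controls and 320 to 384 in the morphine group. Above 0 were also 4 of 6 medial habenula and 4 of 5 ependymal markers, but only 3 of 7 microglia and 1 of 5 endothelial markers. The choroid plexus sums did not overlap between the groups, and the telencephalic, thalamic, oligodendrocyte and astrocyte sums did. Kcnj13 was the choroid plexus marker at 0 in a library, and no telencephalic or thalamic marker was. Fewer cells of a type and less RNA per cell cannot be told apart in such samples.

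All 89 genes had counts. Of the counts over the 18939 transcripts used, they held 1.16, 1.18, 1.16 and 1.03% in control replicates 1, 2, 5 and 6. In morphine replicates 3, 4, 7 and 8 they held 1.32, 1.11, 1.10 and 1.21%. The groups overlapped, with 1.13% ± 0.0692 in controls and 1.18% ± 0.102 in the morphine group (SD, n = 4 each, as throughout). Complex V took the largest share, 0.414% ± 0.0213 against 0.414% ± 0.0251, followed by complex I with 0.333% ± 0.0282 against 0.350% ± 0.0344. Complex IV took 0.190% ± 0.0232 against 0.222% ± 0.0305, complex III 0.111% ± 0.00639 against 0.118% ± 0.00925 and complex II 0.0824% ± 0.00350 against 0.0810% ± 0.00592.

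Per length of transcript, Atp5b of ATP synthase had the highest level of the 89 genes. Levels between genes are given as CPM per kilobase (CPM/kb) in control libraries. Atp5b, the beta subunit where ATP is made, stood at 794 ± 81.2, and Atp5a1, its alpha partner, at 472 ± 57.7. In complex IV the highest were Cox6b1, which helps to hold the dimer together on its outer face, at 514 ± 65.0, and Cox4i1, the nuclear subunit at which ATP regulates the enzyme, at 458 ± 60.9. Those levels overlapped between libraries, and their order is not firm. Ndufa4 led the genes with a complex I name at 326 ± 42.9 and Ndufb8, an accessory subunit of the membrane arm, followed at 275 ± 42.2. Uqcrh, the hinge protein of complex III, stood at 246 ± 24.3, and Uqcr10, a small subunit, at 245 ± 29.0, which did not differ beyond their spread. Sdha, the flavoprotein of complex II that oxidizes succinate, stood at 158 ± 14.4 and Sdhb, the iron-sulfur subunit, at 127 ± 6.80. The membrane anchors Sdhd and Sdhc were lower, at 86.8 ± 6.15 and 37.7 ± 0.542. The median over the genes of a complex was 91.0 in complex I, 107 in complex II, 146 in complex III, 59.1 in complex IV and 113 in complex V.

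**Figure D1:**
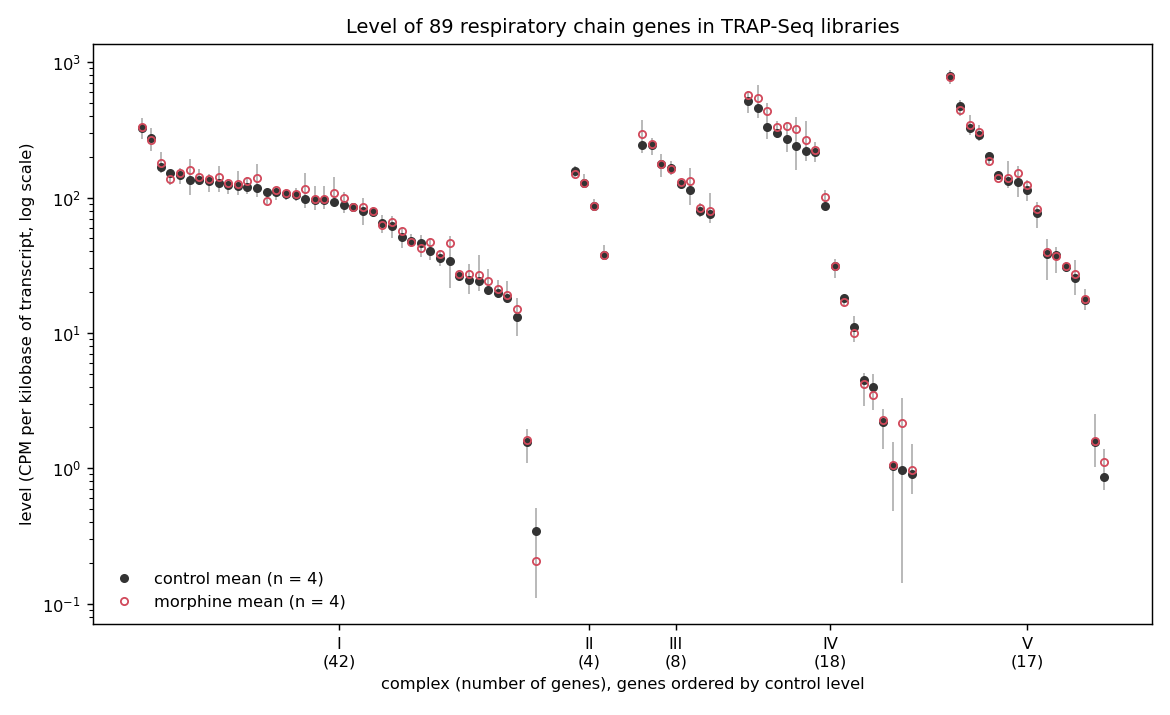
Level of each of the 89 genes in CPM per kilobase of transcript (log axis), ordered within each complex by control level. Filled points are control means and open points morphine means (n = 4 each), and lines span the lowest to the highest of the 8 libraries. Atp5b is the highest at 794 in controls, and a tail of tissue isoforms and Ndufa4l2 lies near or under 1.

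Levels within a complex were far from equal although subunits are assembled in fixed numbers. Ndufab1, the mitochondrial acyl carrier protein, stood at 1.56 CPM/kb, Cox7c, a small subunit of complex IV, at 3.95 and Atp5l, subunit g of ATP synthase, at 1.55. Part of the sequence of these genes also occurs elsewhere, and whether this bears on their levels was not tested. For each gene, the share of 50-base windows of its transcript that also occur in a pseudogene or in another gene was computed. It was 84.8% for Atp5l, 53.0% for Cox7c, 87.4% for Atp5g2 and 12.3% for Ndufab1, whose transcript in the annotation is 3479 bases long. The 17 genes with at least 25% of windows shared had a median level of 37.7 CPM/kb and the others 101, and 41 genes had no shared window. How shared reads were counted is not given in the sources used here, so levels of the 17 genes may be uncertain, and 16 genes overlap another coding gene (Cox6a2 overlaps Itgad and Cox4i2 overlaps Bcl2l1), where reads of the other gene were not told apart. Taken gene by gene, libraries of a group were as close to each other in these genes as in others, with a median coefficient of variation of 10.2% in controls and 11.2% in the morphine group among members and of 10.7% and 11.0% among all genes with at least 10 CPM. The mean log2 CPM over the 89 members varied more between libraries of a group (pooled SD 0.120) than the mean over all genes (0.044).

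Morphine exposure was then compared with control for each gene. None of the 89 genes passed an adjusted P value of 0.05 in edgeR's quasi-likelihood test, which called 0.195% of all genes (37 genes), and none passed in DESeq2, which called 2.65% (502 genes). The lowest adjusted P value of a member was 0.304 (Cox8a). At an unadjusted P value under 0.05, 5 members (5.62%) were found where 12.1% of all genes were. Of these, 4 had higher values in the morphine group (6.79% of all genes) and 1 had lower values (5.31% of all genes). Groups did not overlap in 1 member with lower values in the morphine group (3.21% of all genes) and in 0 members with higher values (3.34% of all genes). The direction was less even than the calls. In 68 of 89 members (76.4%) the log2 fold change was above 0, as compared to 51.4% of all genes, but the size was small, with a median of 0.061 against 0.0088 over all genes. With offsets for transcript length and GC content 54 members (60.7%) were above 0 with a median of 0.031, and with upper-quartile factors 58 (65.2%) with a median of 0.037, as compared to 50.3% and 47.9% of all genes. For 74 members the 95% interval lay within a 1.5-fold change in either direction, as it did for 70 of the 76 members with at least 10 CPM. Intervals reached further for 15 members, among them Cox8a, Cox6a1, Cox6c, Ndufa5, Cox5a and the scarce isoforms.

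In complex I the median log2 fold change was 0.063 over 42 genes, with 35 above 0. Among the 7 core subunits, which carry the flavin, the iron-sulfur clusters and the quinone site, 5 were above 0 and the median was 0.090. Ndufv1, the flavoprotein that takes electrons from NADH (chr19:4007499-4012755, GRCm38.p6), had a value below 0. Its level was 192, 171, 182 and 186 CPM in control replicates 1, 2, 5 and 6 and 164, 149.6, 163 and 155 CPM in morphine replicates 3, 4, 7 and 8. Every morphine library lay under every control library, and it was the only member of the 89 with groups apart. Its log2 fold change was -0.21 (SE 0.0833, edgeR unadjusted P = 0.0283, adjusted P = 0.340), and -0.23 without control replicate 5. With offsets for transcript length and GC content the value was -0.18 and the unadjusted P value 0.0762. In edgeR the unadjusted P value was also above 0.05 with sex in the model (0.0503), with a score of the choroid plexus markers in the model (0.348, value -0.14), with a telencephalic marker score (0.171, value -0.19) and without control replicate 1 or 6 or morphine replicate 4 or 8 (0.0503 to 0.0771).

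Ndufs1, the largest core subunit and carrier of several iron-sulfur clusters, had 182, 146, 196 and 163 CPM in controls and 179, 159, 171 and 154 CPM in the morphine group. The groups overlapped, and its log2 fold change was -0.05 (95% interval -0.29 to 0.18). Of the 29 accessory subunits, 25 were above 0 with a median of 0.053. The accessory subunit with the highest value was Ndufa5, a part of the matrix arm, named here after its values were seen. Its level was 33.8, 31.9, 33.6 and 18.9 CPM in controls and 45.4, 45.4, 30.9 and 40.6 CPM in the morphine group. The groups overlapped through morphine replicate 7, and control replicate 6 stood far under the others. The log2 fold change was 0.46 (SE 0.186, unadjusted P = 0.0316, adjusted P = 0.352), and 0.27 with an unadjusted P value of 0.0856 without control replicate 6. Without morphine replicate 3 or 4 it was 0.40 with unadjusted P values of 0.0846 and 0.0800, and with the choroid plexus and telencephalic scores it was 0.86 and 1.06. The 4 assembly factors were all above 0 (median 0.080), and none of them passed at an unadjusted P value of 0.05.

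Complex II, which also works in the tricarboxylic acid cycle, had a median log2 fold change of -0.0016 over its 4 genes. Sdha had 500.3, 413, 485 and 432 CPM in controls and 447, 410.5, 428 and 440.1 CPM in the morphine group, and its log2 fold change was -0.08 (95% interval -0.29 to 0.13). Sdhb had 148, 155, 141 and 138 CPM and 171, 134, 139 and 146 CPM, a log2 fold change of 0.02 (-0.20 to 0.23). The groups overlapped for all 4 genes, and morphine replicate 3 was the highest morphine library for each.

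In complex III the median was 0.064 over 8 genes, with 6 above 0. The highest value belonged to Uqcrh, with 133, 147, 141 and 117 CPM in controls and 206, 147, 129 and 165 CPM in the morphine group. The groups overlapped, and the log2 fold change was 0.27 (SE 0.139, adjusted P = 0.487). It was 0.13 without morphine replicate 3, 0.18 without control replicate 6 or with length and GC offsets, and 0.62 with the telencephalic score. Uqcrc1, a core protein of the matrix side, had 278, 260.0, 308 and 253 CPM and 278, 242, 266 and 283 CPM, a log2 fold change of -0.04 (95% interval -0.25 to 0.17). Uqcrfs1, the Rieske iron-sulfur protein that passes electrons to cytochrome c1, kept between 99.1 and 105 CPM in the 4 controls. It was 147 CPM in morphine replicate 3 and 88.7, 103 and 97.8 CPM in the others, so its log2 fold change of 0.09 (SE 0.142) was -0.09 without that library.

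Complex IV had the highest median, 0.11 over 18 genes, and 3 of the 4 members with higher values at an unadjusted P value under 0.05. These were 16.7% of its genes, as compared to 6.79% of all genes and 9.34% of genes of at least 10 CPM under 1000 bases. The median was 0.20 without control replicate 2 and 0.17 without morphine replicate 7, and 0.065 without control replicate 6 or with length and GC offsets and 0.073 with at least 10 counts in every library. Its 10 common subunits alone had a median of 0.20, with 8 above 0. Cox8a, the ubiquitous form of the smallest subunit (chr19:7215158-7217616), had 179.6, 202, 204 and 149 CPM in controls and 274, 205, 203 and 271 CPM in the morphine group. Morphine replicates 3, 4 and 8 stood above all controls, replicate 4 by a small margin, and the groups overlapped through replicate 7. The log2 fold change was 0.38 (SE 0.138, unadjusted P = 0.0193, adjusted P = 0.304).

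Cox6a1, the common form of a subunit involved in the dimer (chr5:115345652-115348958), had 156, 176, 159.7 and 123 CPM in controls and 207, 207, 159 and 193 CPM in the morphine group. The groups overlapped through morphine replicate 7. The log2 fold change was 0.32 (SE 0.126, unadjusted P = 0.0282, adjusted P = 0.339). Cox6c, a small transmembrane subunit named after its values were seen, had 127, 140.3, 139 and 81.0 CPM and 198, 146, 134 and 172 CPM, again with control replicate 6 far under the other controls. Its log2 fold change was 0.42 (SE 0.176, unadjusted P = 0.0377, adjusted P = 0.376). Without control replicate 6 the values were 0.27 for Cox8a, 0.20 for Cox6a1 and 0.24 for Cox6c, with unadjusted P values of 0.0807, 0.121 and 0.113. Unadjusted P values were also above 0.05 for all 3 without control replicate 1 or morphine replicate 3 (0.0503 to 0.124), where the lowest value was 0.28 for Cox6a1. They were also above 0.05 without morphine replicate 8 for Cox8a and Cox6c, without morphine replicate 4 for Cox6a1, with the choroid plexus score for Cox8a and Cox6a1 and with the low-count filter of filterByExpr for Cox6c. With the telencephalic score the values were higher, at 0.76, 0.62 and 1.06. Without control replicate 5 they were 0.41, 0.32 and 0.47.

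Cox4i1 had 345, 399, 331 and 289.7 CPM in controls and 504, 375, 341 and 406 CPM in the morphine group, and its log2 fold change was 0.25 (95% interval -0.05 to 0.55). Cox5a, a matrix-side subunit that binds a thyroid hormone metabolite, had 134, 158, 162 and 121 CPM and 237, 141, 143 and 169 CPM, a log2 fold change of 0.26 (-0.10 to 0.63). In both genes morphine replicate 3 was the highest of all 8 libraries, replicate 8 also stood above every control, and replicates 4 and 7 lay within the control range. Without morphine replicate 3 the values were 0.13 for Cox4i1 and 0.07 for Cox5a, and without control replicate 6 they were 0.16 and 0.17. Cox7a2l, a factor in assembling complexes III and IV into supercomplexes, had a log2 fold change of 0.21 (SE 0.112).

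The catalytic subunits of complex V had values near 0. Atp5b had 1619, 1324, 1669 and 1475 CPM in controls and 1634, 1355, 1529 and 1459.8 CPM in the morphine group, and its log2 fold change was -0.03 (95% interval -0.27 to 0.22). Atp5a1 had 1238, 983, 1311 and 1134 CPM and 1108, 1054, 1171 and 1054 CPM, a log2 fold change of -0.09 (-0.34 to 0.16). In these abundant genes control replicate 2 was the lowest of all 8 libraries. Without control replicate 2 the value of Atp5a1 was -0.16, and without control replicate 5 it was -0.04. The median over the 17 genes was 0.042 (0.12 without control replicate 2), with 12 above 0 and 5 below, and 0 members with an unadjusted P value under 0.05. Atp5h, subunit d of the peripheral stalk, had a value of 0.23 (SE 0.134), and Atp5o, the stalk subunit that caps the catalytic head, had -0.12 (SE 0.0894). Of windows of these genes, 50.5% and 50.3% were shared with pseudogenes or other genes.

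Several complex IV subunits exist as a common form and as a form known from heart and skeletal muscle or other tissues, and the c subunit of ATP synthase is encoded by 3 genes. The common form dominated each of the 9 gene pairs compared, as levels per kilobase. The c subunit was mostly Atp5g3, and Atp5g1 made up 8.17% to 11.5% of the sum of both. Of Atp5g1 windows 66.0% were shared with pseudogenes and of Atp5g3 windows 0%, so this share may be uncertain. Cox6a2 was the best represented of the tissue forms in complex IV, at 2.55% to 4.68% of the sum with Cox6a1. The shares of Cox7a1, Cox6b2, Cox4i2, Cox7b2 and Cox8b all lay at or under 1.64%, and Ndufa4l2 held 0.0325% to 0.136% of the sum with Ndufa4. The 4 striated muscle markers (Ckm, Acta1, Tnnt3 and Myl1) summed to 3.73 to 6.24 CPM in controls and 3.74 to 6.27 CPM in the morphine group, with Ckm, Tnnt3 and Myl1 at 0 in at least 1 library.

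The share of Cox6a2 was 4.68, 3.72, 3.52 and 3.78% in controls and 3.13, 2.90, 3.07 and 2.55% in the morphine group (3.93% ± 0.516 against 2.92% ± 0.260). The groups did not overlap in this share (P = 0.0286 in a two-sided exact permutation test, the lowest value 4 against 4 libraries can give), but adjusted over the 9 pairs the P value was 0.257. Without control replicate 5 the control mean was 4.06% ± 0.536. The level of Cox6a2 itself overlapped, with 9.10, 8.10, 6.93 and 5.78 CPM in controls and 7.98, 7.36, 6.01 and 6.02 CPM in the morphine group, and its log2 fold change was -0.13 (SE 0.172). The share also holds the level of Cox6a1. In the other 8 pairs the groups overlapped. Cox8b was the least even, at 0.0513, 0.0900, 0.669 and 0.597 CPM in controls and 0.0562, 0.999, 0.844 and 1.19 CPM in the morphine group. It was low in control replicates 1 and 2 and morphine replicate 3, which are males, and high in male morphine replicate 4 and in all libraries labelled female.

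**Figure D2:**
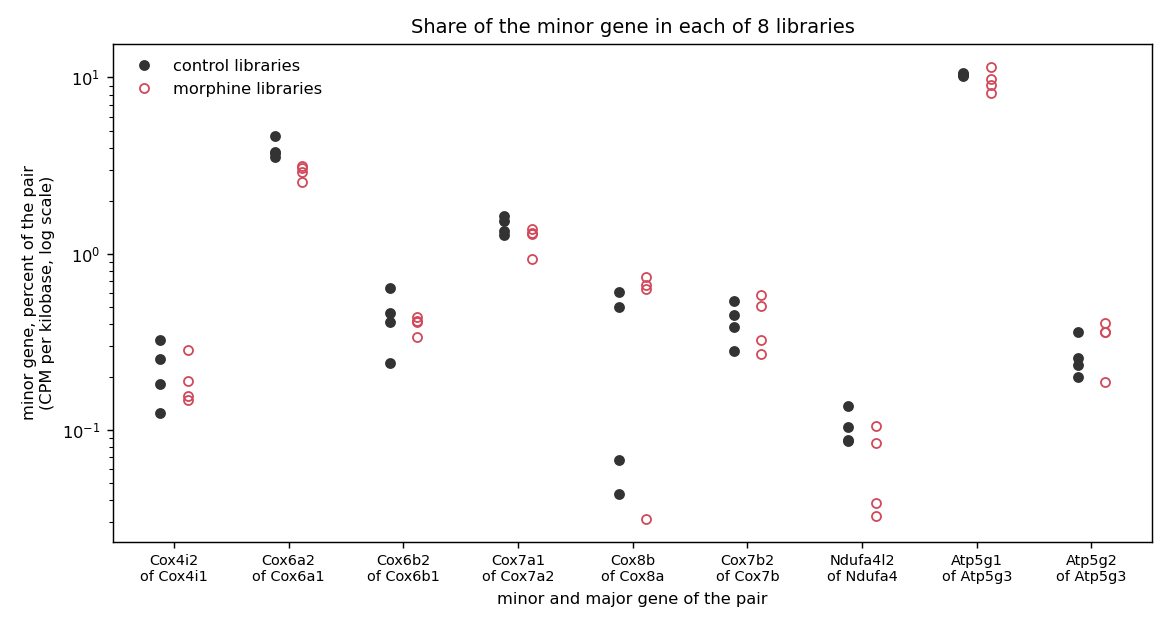
Share of the minor gene in the sum of a pair, in percent of CPM per kilobase (log axis), for 9 pairs. Filled points are the 4 control libraries and open points the 4 morphine libraries. The Cox6a2 share lies at 3.52% to 4.68% in controls and 2.55% to 3.13% in the morphine group, and the other pairs overlap.

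The promoters of Ndufv1, Cox8a and Cox6a1, the genes named by rule with the lowest P values, are shown because regulators of respiratory genes bind known short motifs there. Motifs were searched on both strands in windows from 250 bases before to 50 bases after the start of a RefSeq transcript (GRCm38.p6), which were found for 74 members (80 windows). CCGGAA, the core bound by ETS factors such as NRF-2 (GABP), was in 35% of member windows and 14.9% of all 32851 windows. TGCGCA, inside the NRF-1 palindrome, was in 25% and 7.76%, and GATGGCG, the core bound by YY1, in 16.2% and 3.49%. GGGCGG, the GC box, was in 42.5% and 35.7%, and TATAAA, the TATA box, in 10% and 13.6%. Among windows of the genes in the table alone, the shares were 21.4%, 11.3%, 5.00%, 54.1% and 9.20%. In the sequences, 5′ to 3′ along the minus strand on which each gene lies, capitals mark these motifs on either strand, at chr19:4012706-4013005 for Ndufv1, chr19:7217567-7217866 for Cox8a and chr5:115348909-115349208 for Cox6a1.
Ndufv1: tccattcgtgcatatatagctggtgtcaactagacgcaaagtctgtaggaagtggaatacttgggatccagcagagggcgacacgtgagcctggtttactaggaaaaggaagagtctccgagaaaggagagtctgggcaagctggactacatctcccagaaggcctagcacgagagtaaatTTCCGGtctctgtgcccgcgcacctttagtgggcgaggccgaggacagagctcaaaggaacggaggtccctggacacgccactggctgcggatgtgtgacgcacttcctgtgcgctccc
Cox8a: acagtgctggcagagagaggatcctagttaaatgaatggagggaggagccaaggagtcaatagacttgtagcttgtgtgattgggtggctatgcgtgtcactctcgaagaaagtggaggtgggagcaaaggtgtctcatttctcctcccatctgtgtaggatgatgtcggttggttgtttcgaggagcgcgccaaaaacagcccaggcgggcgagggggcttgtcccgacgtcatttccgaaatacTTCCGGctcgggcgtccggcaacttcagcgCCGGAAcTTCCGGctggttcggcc
Cox6a1: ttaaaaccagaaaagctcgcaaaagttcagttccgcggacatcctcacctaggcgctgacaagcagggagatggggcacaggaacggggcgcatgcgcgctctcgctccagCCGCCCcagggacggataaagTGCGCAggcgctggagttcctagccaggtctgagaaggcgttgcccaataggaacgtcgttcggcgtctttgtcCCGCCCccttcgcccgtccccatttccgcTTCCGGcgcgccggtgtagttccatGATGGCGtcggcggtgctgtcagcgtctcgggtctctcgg
The Ndufv1 window held 1 match, to the ETS core. The Cox8a window held 3, all to the ETS core and close to the start of the transcript. The Cox6a1 window held 5, of which 1 was to the ETS core, 1 to TGCGCA, 1 to the YY1 core and 2 to the GC box. A match is a run of letters and no evidence of binding, and gene levels were not tested against it.

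The 5 complexes deviated in the same direction in some libraries. As the mean over the 89 genes of log2 CPM minus the mean of the controls, they were 0.03, 0.10, 0.06 and -0.18 in control replicates 1, 2, 5 and 6 and 0.22, 0.05, -0.05 and 0.10 in morphine replicates 3, 4, 7 and 8. Control replicate 6 was the lowest control in 69 of the 89 genes, whereas it was the lowest control for 19.7% of all genes with at least 10 CPM. Morphine replicate 3 was the highest morphine library in 64, as compared to 33.8% of those genes, and morphine replicate 7 was the lowest in 49, as compared to 20.5%. For complex I these deviations were -0.21 in control replicate 6 and 0.24 in morphine replicate 3, for complex IV -0.16 and 0.23 and for complex V -0.19 and 0.20. Complex II deviated less, with -0.07 and 0.15. Morphine replicate 8 had 0.26 in complex IV, 0.04 in complex V and -0.03 in complex II. Its complex IV value included the 6 scarce tissue isoforms, which were at 0.40 in morphine replicate 8 and -0.07 in morphine replicate 3. Over the 10 common subunits the values were 0.20 in morphine replicate 8, 0.43 in morphine replicate 3 and -0.26 in control replicate 6.

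**Figure D3:**
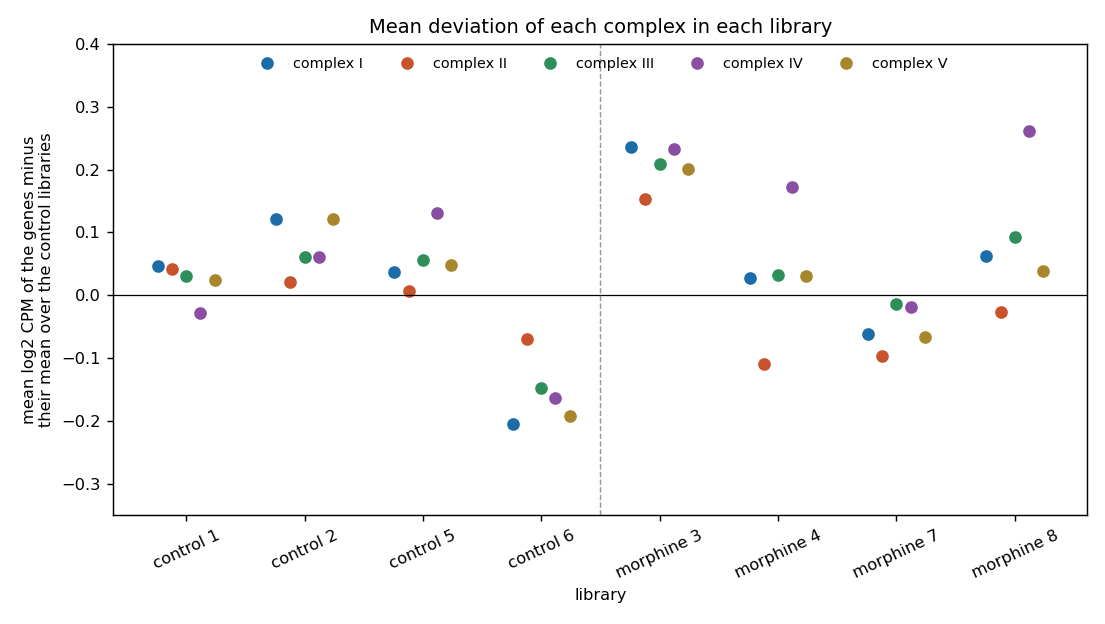
Mean log2 CPM of the genes of each complex in each library, minus their mean over the control libraries. Control replicate 6 lies under 0 for all 5 complexes, and morphine replicate 3 above 0 for all 5, and in morphine replicate 8 the mean of complex IV, scarce tissue isoforms included, is the highest of the 5, at 0.26.

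The lean toward higher values rested on control replicate 6 and was smaller without morphine replicate 3. Without control replicate 6, 41 of 89 members (46.1%) had log2 fold changes above 0, as compared to 46.7% of all genes, and the median was -0.025 against -0.021 over all genes, with -0.020 in complex I and -0.041 in complex V. None of the 89 members then had an unadjusted P value under 0.05. Without morphine replicate 3, 49 members (55.1%) were above 0, as compared to 48.5% of all genes, and the median was 0.0063 against -0.0091 over all genes, with 0.0060 in complex I, -0.079 in complex II and -0.0050 in complex V. The medians of complexes III and IV stayed above 0 in both, at 0.025 and 0.065 without control replicate 6 and 0.050 and 0.086 without morphine replicate 3. Without control replicate 5, whose sex label was in doubt, 65 members were above 0 with a median of 0.053.

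Transcript length and the markers of other cells were set beside these values. Members had a median transcript length of 758 bases and all genes 2670. The 57 members under 1000 bases had a median log2 fold change of 0.081 and the 32 longer ones 0.033, and among all genes with at least 10 CPM the medians were 0.073 under 1000 bases (407 genes) and -0.014 for the longer ones (8951 genes). With offsets for length and GC content the medians were 0.040, -0.039, 0.017, 0.065 and 0.013 in complexes I to V. The telencephalic marker score, a mean log2 deviation from the controls, was 1.31 in control replicate 6, the highest of the controls, and 0.76 in morphine replicate 3, the lowest of the morphine libraries. The members were at -0.18 in control replicate 6, the lowest of the controls, and at 0.22 in morphine replicate 3, the highest of the morphine libraries. The choroid plexus score of control replicate 6 was also the highest of the controls, at 1.22. With the telencephalic score in the model, 32 members had higher values in the morphine group at an unadjusted P value under 0.05 (3.81% of all genes) and 0 had lower values. Their median was 0.30, as compared to 0.032 over all genes, and 81 were above 0 (53.4% of all genes), yet none was called and the lowest adjusted P value was 0.313. With the choroid plexus score in the model the medians were 0.18, 0.077, 0.12, 0.20 and 0.13 in complexes I to V. Both scores were higher in the morphine group, so the score and morphine share much of what the model can attribute. The part of length and of these cells in the values was not tested otherwise.

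Sex was then compared in a model that also held morphine. In 73 of 89 members values were lower in the libraries labelled female (52.4% of all genes), with a median log2 difference, female minus male, of -0.12 as compared to -0.011 over all genes. None was called by edgeR (0.00528% of all genes). At an unadjusted P value under 0.05, 9 members had lower values (1.1% of all genes) and 1 had higher values (2.0% of all genes), which was Cox8b. DESeq2 called 1 member (0.111% of all genes), Ndufa13, an accessory subunit of complex I also known as GRIM-19, named here after its values were seen. Ndufa13 had 35.1, 35.3, 40.3 and 39.4 CPM in male control replicates 1 and 2 and morphine replicates 3 and 4. It had 27.3, 24.4, 27.1 and 29.8 CPM in the libraries labelled female, control replicates 5 and 6 and morphine replicates 7 and 8, so that the sexes did not overlap. The log2 difference was -0.46 (SE 0.102, edgeR adjusted P = 0.702, DESeq2 adjusted P = 0.0116), and -0.51 in edgeR without control replicate 5. Ndufa13 overlaps Tssk6, and 28.5% of its windows were shared.

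Atp5k, subunit e of ATP synthase, was also not named by the rule. It had 10.7, 11.3, 11.4 and 12.9 CPM in the male libraries and 8.87, 7.11, 8.02 and 8.32 CPM in those labelled female, in the same order. Its log2 difference was -0.52 (SE 0.132, edgeR adjusted P = 0.702, DESeq2 adjusted P = 0.0862), and -0.61 without control replicate 5. Over all members the median difference was -0.18 without that library, and 16 members then had lower values at an unadjusted P value under 0.05 (0.928% of all genes). The libraries at either end of the members' deviations were of opposite sex labels, control replicate 6 female (-0.18) and morphine replicate 3 male (0.22), and in the others the males (0.03, 0.10 and 0.05) and those labelled female (0.06, -0.05 and 0.10) overlapped. The median difference was -0.082 without control replicate 6 (-0.015 over all genes) and -0.062 without morphine replicate 3 (-0.0023 over all genes). Lower values at an unadjusted P value under 0.05 then numbered 5 (0.992% of all genes) and 7 (1.2% of all genes), and edgeR called no member without any of these 3 libraries. The interaction of sex and morphine was not called for any member by edgeR or DESeq2, and 0 members reached an unadjusted P value under 0.05 in edgeR (1.72% of all genes), with 0.119 as the lowest. Its value was above 0 in 46 members (51.0% of all genes) with a median of 0.0086. The full model had 2 libraries per sex and group. Without control replicate 5 the interaction was above 0 in 68 members (52.8% of all genes) with a median of 0.11 against 0.025 over all genes. In that fit control replicate 6, the lowest control in 69 members, was the only control labelled female, so the shift cannot be told apart from that library.

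Related gene lists were read beside the chain, and none of their genes was called by edgeR. None of the names tested for the mitochondrially encoded subunits was in the table, and these are not analysed here. Of 4 further subunits and carriers (Cyc1, Cycs, Usmg5 and 2010107E04Rik), 0 had an unadjusted P value under 0.05 and the median log2 fold change was 0.027. Cyc1, cytochrome c1 of complex III, had -0.21 (SE 0.107). The 27 measured of 42 assembly factors had a median of 0.044, with 0 in either direction at an unadjusted P value under 0.05, and Sco2, a copper chaperone for complex IV, had the lowest P value (log2 fold change 0.28, SE 0.135). The 14 enzymes of the tricarboxylic acid cycle had a median of -0.034 with 0 in either direction, and Cs, citrate synthase, had -0.20 (SE 0.115).

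For glycolysis, all 15 measured of 16 genes had log2 fold changes below 0 (48.6% of all genes), with a median of -0.13, and 2 (13.3%) had an unadjusted P value under 0.05, as compared to 5.31% of all genes with lower values. The 8 thalamic markers also had log2 fold changes below 0, with a median of -0.28. Within the morphine group, glycolysis was lowest in replicate 3 (a mean log2 deviation from the controls of -0.29, with -0.04 for the thalamic markers). It was highest in replicate 4 (-0.075, with -0.65). Whether the values of the glycolysis genes and of the thalamic markers are related was not tested. Pgam1, a phosphoglycerate mutase, had 34.9, 37.9, 28.0 and 36.5 CPM in controls and 20.2, 26.5, 25.4 and 22.9 CPM in the morphine group. Its groups did not overlap, and the log2 fold change was -0.53 (SE 0.125, unadjusted P = 0.00126, adjusted P = 0.114). The 15 measured genes of mitochondrial biogenesis and mtDNA maintenance had a median of -0.0092, with 0 higher and 1 lower at an unadjusted P value under 0.05 (Esrra, a nuclear receptor that drives respiratory genes, -0.26, SE 0.0994). The 20 genes of mitochondrial membranes, import and carriers had a median of -0.030 with 0 in either direction.

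Protein-making and protein-degrading machinery was read as well. The 76 mitochondrial ribosomal proteins had a median of 0.060, with 1 higher and 1 lower at an unadjusted P value under 0.05, and the 83 cytosolic ribosomal proteins 0.083, with 8 higher (9.64%) and 0 lower. Among all genes of at least 10 CPM under 1000 bases, 9.34% had higher values at that P value, and among all genes under 1000 bases 4.89% had. Rpl5, of the large cytosolic subunit, had the lowest P value among the 83 cytosolic ribosomal proteins (0.45, SE 0.119, adjusted P = 0.154). The median control level of these 83 genes was 15.3 CPM/kb, as compared to 96.0 for the 89 members. Sequence shared with pseudogenes or other genes was computed for the members only, so its part in the related lists is not known. The 40 proteasome subunits had a median of 0.018, with 0 higher and 1 lower.

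**Figure D4:**
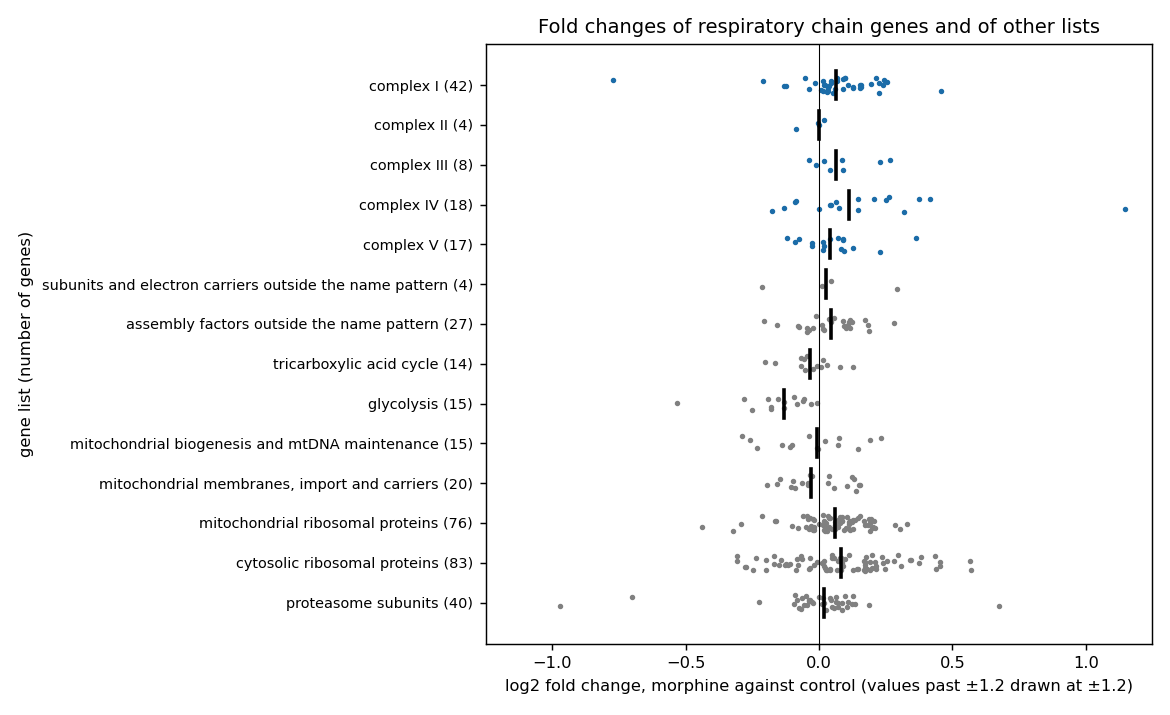
log2 fold change in the morphine group against the control group of every gene of complexes I to V and of 9 related lists, with the median as a black bar. The median is 0.11 in complex IV and -0.13 in glycolysis, where all 15 genes lie below 0.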

How the data were processed

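The authors deposited whole-number read counts per RefSeq transcript for 8 TRAP-Seq libraries, not normalized. The submitters' processing notes name mm10 and DESeq2. The study's methods describe Salmon quantification summarised to genes, which is not this table, and the tool that made it is not given in the sources used here. How reads shared by transcripts of a gene were counted is not stated, so the transcript with the most reads stood for each gene, and summing over transcripts was an alternative. Whether counting used the strand is not stated.

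For all 18939 genes, TMM-scaled counts went into the quasi-likelihood test of edgeR 4.0.16 under R 4.3.3, in a model of condition alone, with Benjamini-Hochberg adjustment. A gene with an adjusted P value under 0.05 is said to be called. CPM were computed from these counts, and log2 CPM used a prior count of 2. Isoform shares were compared by exact two-sided permutation over the 70 arrangements of the libraries. Scripts were tested on simulated data. Each library pooled 2 mice, and P values measure the spread between such libraries. PCR copies are not marked, so counting error is a lower limit of the error.

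Members and gene lists were chosen with earlier results of these data known. Genes named are the highest of each complex per kilobase, any member with groups apart, catalytic subunits, isoform pairs, members with fewer than 10 counts in a library and the lowest P value of each further list. Some others are marked in the text. Further genes outside this rule are reported without a mark, namely Atp5k, Atp5h, Atp5o, Cox7a2l, Ndufb8, Uqcr10, Sdhc, Sdhd, Ndufab1, Cox7c and Atp5l. None of these was set in advance, and 1 gene of the rule is counted but not reported singly here. Transcript length and GC content came from GENCODE M21, matched for 99.4% of genes, and coordinates and promoters from RefSeq on GRCm38.p6. Alternatives were DESeq2 1.42.0, limma-voom (limma 3.58.1), upper-quartile or RLE factors, a minimum of 10 counts in every library, filterByExpr, sex, length and GC offsets or marker scores in the model, and each library left out. DESeq2 for sex, and the sex tests without control replicate 5, were added after seeing the data. Columns left without a sample numbered 0. Figures were drawn with matplotlib 3.10.9.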

Additional observations from a re-analysis of the deposited data

Results flagged for a closer look

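Of 62 groups of 4 values examined for a value far from the other 3, 3 had one, and chance gives about 1 in 20. The level of Atp5g2, a gene for the c subunit of ATP synthase, was 0.945 CPM in control replicate 2 and 0.502 to 0.543 CPM in the other controls. The level of Cox7a1, a tissue form of a complex IV subunit, was 1.14 CPM in morphine replicate 7 and 1.79 to 1.88 CPM in the other morphine libraries. The mean log2 deviation of the 8 complex III genes was -0.15 in control replicate 6 and 0.031 to 0.061 in the other controls.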

How the results depend on the processing

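No member was called for morphine in edgeR or in any of the 19 alternatives. The number of all genes called was 37, and it was 502 with DESeq2, 14 with filterByExpr, 15 with at least 10 counts in every library, 110 with sex in the model, 23 with limma-voom, 22 with the sum over transcripts, 0 with the choroid plexus score, 1 with the telencephalic score and 0 to 77 with 1 library left out (0 without morphine replicate 4 or 8, 1 without control replicate 1, 11 without morphine replicate 7, 20 without control replicate 5 and 77 without control replicate 6 or morphine replicate 3). Members with an unadjusted P value under 0.05 numbered 5, and 3 with the choroid plexus score, 32 with the telencephalic score and 0 to 9 with 1 library left out (0 without control replicate 6, 1 without control replicate 1, 2 without morphine replicate 3 or 8 and 9 without control replicate 2). With the telencephalic score the medians of complexes I to V were 0.30, 0.16, 0.17, 0.38 and 0.27. DESeq2 called 1 member between the sexes. The cause of these shifts was not tested.

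For the 25 members reported by rule, 431 of 472 values kept their direction, 41 changed sign and 0 became called, and 11 members never changed sign. With the choroid plexus score the values that changed sign were Atp5a1 0.063, Atp5b 0.13, Cox4i2 -0.037, Cox6a2 0.28, Cox6b2 -0.093, Cox7a1 0.042, Cox8b -0.61, Ndufs1 0.14, Sdha 0.056 and Uqcrc1 0.051. With the telencephalic score they were Atp5b 0.095, Atp5g1 0.14, Cox6a2 0.27, Cox6b2 -0.23, Cox7a1 0.27, Cox8b -0.56, Ndufs1 0.065, Sdha 0.031 and Uqcrc1 0.11. Ndufa4 was -0.0043 with upper-quartile factors and -0.077 with length and GC offsets, and Sdhb was -0.0041 with upper-quartile factors. With 1 library left out, Atp5b ranged from -0.087 to 0.018, Atp5g1 from -0.11 to 0.073, Cox4i2 from -0.22 to 0.22, Cox6b2 from -0.10 to 0.17, Cox7a1 from -0.20 to 0.032, Ndufa4 from -0.085 to 0.087, Ndufs1 from -0.12 to 0.00021, Sdhb from -0.058 to 0.061, Uqcrc1 from -0.099 to 0.0048 and Uqcrfs1 from -0.091 to 0.18. Others kept their sign but moved by over 1.5 times, namely Atp5a1 (-0.16 to -0.044), Atp5g2 (0.24 to 0.63), Atp5g3 (0.0021 to 0.13), Cox4i1 (0.13 to 0.34), Cox5a (0.070 to 0.35), Cox6a1 (0.20 to 0.39), Cox6a2 (-0.26 to -0.035), Cox6b1 (0.045 to 0.21), Cox7a2 (0.086 to 0.17), Sdha (-0.13 to -0.053) and Uqcrh (0.13 to 0.34). The medians of complexes I to V ranged from -0.020 to 0.098, -0.079 to 0.026, 0.025 to 0.086, 0.065 to 0.20 and -0.041 to 0.12.

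No paired analysis was possible because the groups share no replicate numbers. Counting error limits Ndufa4l2 and Cox8b, which had fewer than 10 counts in some library, and how reads of the sequence shared by Atp5l, Atp5g2 and Cox7c were counted is not given in the sources used here. The printed intervals give the precision of 4 libraries a group.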
